A study of Mus musculus with 2 samples.

Results

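The Hox genes encode homeodomain transcription factors and lie in 4 clusters on the mouse genome. Members were the protein-coding genes of the GENCODE M21 annotation with a symbol of Hoxa, Hoxb, Hoxc or Hoxd followed by a number. The annotation holds 39, and 38 of them are among the 37315 gene identifiers of the deposited counts. Hoxd4 is the other one. They divide into 11 Hoxa genes (GRCm38 chromosome 6, 52155590 to 52260880, minus strand), 10 Hoxb genes (chromosome 11, 96194316 to 96368256, plus strand), 9 Hoxc genes (chromosome 15, 102921103 to 103036852, plus strand) and 8 Hoxd genes (chromosome 2, 74668310 to 74765142, plus strand).

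The counts come from mRNA sequencing of whole lung from C57BL/6 mice, an inbred laboratory strain, with 1 library after exposure to PM2.5 (fine airborne particulate matter) and 1 control library. The labels do not state sex, age, dose, route or how many animals a library holds, and both titles carry 12 and then W, left unexplained. The PM2.5 library held 57435027 counts and the control library 62788045. With 1 library per group there is no replicate check and no p-value, and every ratio describes these 2 libraries, not the conditions.

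Within each cluster the genes carry numbers from 1 to 13 by their order on the chromosome, and genes of the same number in different clusters are paralogues, copies of 1 ancestral gene. In the embryo, low-numbered genes are active earlier and nearer the head, and high-numbered genes later and nearer the tail. The adult lung keeps part of its embryonic Hox pattern, mostly in connective tissue cells. Hoxa5 is the member best known there: mice without it have malformed airways and lungs, and many die at birth.

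The promoters of 3 members are given because the results turn on these genes: Hoxa5 had the highest level, Hoxb4 the largest ratio and Hoxa7 the smallest ratio among members that passed the level filter. They were chosen after their values were seen. The sequences are from RefSeq (GRCm38.p6), each with 250 bases before the start site and 50 after it, written 5′ to 3′ on the strand of the gene. Capitals mark AGGTCA, the half-site bound by retinoic acid receptors and other nuclear receptors, or TGACCT, the same letters on the opposite strand. The windows are chr6:52204538-52204837 on the minus strand for Hoxa5, chr11:96318017-96318316 on the plus strand for Hoxb4 and chr6:52218524-52218823 on the minus strand for Hoxa7.
Hoxa5: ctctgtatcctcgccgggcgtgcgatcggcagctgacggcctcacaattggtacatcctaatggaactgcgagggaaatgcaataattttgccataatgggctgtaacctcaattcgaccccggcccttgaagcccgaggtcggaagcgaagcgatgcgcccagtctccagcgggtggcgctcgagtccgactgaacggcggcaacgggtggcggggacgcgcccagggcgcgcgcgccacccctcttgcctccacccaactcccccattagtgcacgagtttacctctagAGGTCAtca
Hoxb4: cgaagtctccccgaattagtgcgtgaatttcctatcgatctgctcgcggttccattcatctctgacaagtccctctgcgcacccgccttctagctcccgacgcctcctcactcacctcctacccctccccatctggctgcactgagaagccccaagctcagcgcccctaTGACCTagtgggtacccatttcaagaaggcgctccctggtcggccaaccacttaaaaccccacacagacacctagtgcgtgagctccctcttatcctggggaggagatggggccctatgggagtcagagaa
Hoxa7: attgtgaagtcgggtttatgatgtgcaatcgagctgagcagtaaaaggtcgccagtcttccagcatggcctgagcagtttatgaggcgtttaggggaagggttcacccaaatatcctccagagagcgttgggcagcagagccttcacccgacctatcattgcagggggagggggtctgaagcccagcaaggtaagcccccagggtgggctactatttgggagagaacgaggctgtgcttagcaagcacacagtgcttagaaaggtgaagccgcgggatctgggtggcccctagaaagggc

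The Hoxa5 window has 1 match, which begins 42 bases into the transcript, and 29 CpG dinucleotides. The Hoxb4 window has 1 match on the opposite strand, whose leftmost base lies 81 bases before the start site, and 14 CpG. The Hoxa7 window has 9 CpG, and these letters are not in it. Its RefSeq start site lies 3281 bases inside the gene as GENCODE draws it, so another start is annotated upstream. The median over all promoters of the table was 7 CpG.

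Searched on both strands, AGGTCA was present in 16.3% of 32851 promoters of this length and in 7 of the 24 promoters of 22 Hox genes. The other 4 motifs were TGATNNAT, the site of Hox proteins with Pbx partners (8.85% of all promoters and 4 Hox promoters), TATAAA, the TATA box (13.6% and 4), TAATTA, a homeodomain core (5.29% and 2), and GGGCGG, a GC box (35.7% and 10). None of these other 4 was found in the Hoxa5, Hoxb4 or Hoxa7 window. A match is a string of letters and shows no binding.

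The lung label was checked against epithelial markers. All 17 lung epithelium markers had a mean of at least 1 CPM (counts per 1000000 of the scaled library size). Among them Scgb1a1, a secretory protein of club cells, had 1860197 counts in the PM2.5 library and 1123766 in the control library. Sftpc, a surfactant protein of type 2 cells, had 1159636 and 837001 counts in the PM2.5 and control libraries. Library sizes were scaled with edgeR TMM factors, 1.08 for the PM2.5 library and 0.923 for the control library. Other scalings moved the median log2 ratio of all genes, by 0.23 for unscaled library totals and by 0.14 for the upper quartile. Ratios of PM2.5 over control are given below relative to the TMM scaling, with exact 95% intervals for counting error alone. The intervals treat each read as independent. Reads without molecular tags are not separate molecules, so the intervals can be too narrow even for counting error.

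Hox genes took the same small share of both libraries, 0.0132% of the PM2.5 counts and 0.0131% of the control counts, or 7559 and 8244 counts. Hoxa5, Hoxb4 and other members numbered 2 to 7 of the Hoxa and Hoxb clusters held nearly all of it, while Hoxc, Hoxd and every gene numbered 9 or higher had few counts or none. The level filter, a mean of at least 1 CPM over both libraries, was passed by 13 members, all of the Hoxa and Hoxb clusters and numbered 7 or lower. Another 17 had counts but stayed below it, and 8 were at 0 in both libraries. The lowest member inside the filter was Hoxb2, at a mean of 1.19 CPM, and the highest outside it was Hoxd8, at 0.808 CPM.

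A gene is called higher or lower here if its ratio is 1.5-fold or beyond and the counting interval leaves out 1. By that rule 2 of the 13 members were higher in the PM2.5 library, Hoxb4 and Hoxb7, and 2 were lower, Hoxa7 and Hoxb5. Over all 14518 genes that passed the filter, 14.9% were higher and 19.1% lower, so the number of Hox members called lies near the background. At a size of 2-fold, Hoxb4 alone was higher and Hoxa7 alone lower, beside 7.25% of all genes higher and 6.04% lower. The median log2 ratio of the 13 members was -0.10, with a range of -1.39 to 1.15, beside a median of -0.09 over all genes. The ratios of 6 members lay above 1 and those of 7 below it. Fewer cells of a type and less RNA per cell cannot be told apart in such tissue libraries.

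**Figure D1:**
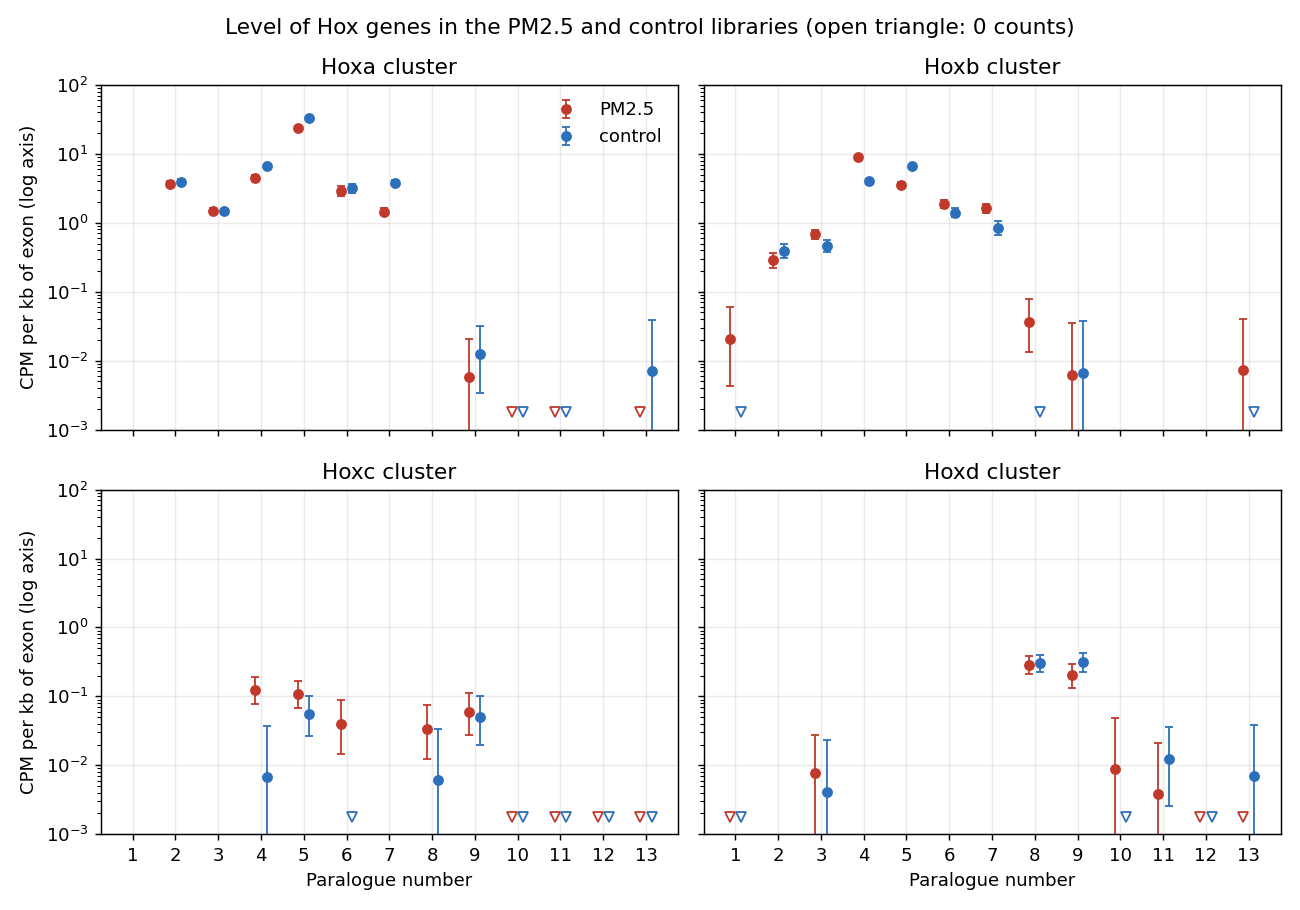
Level of the listed Hox genes, 1 left out, in CPM per kb of exon on a log axis, by cluster and paralogue number, with the PM2.5 library in red to the left of the control library in blue. Points are single libraries, bars are exact 95% Poisson intervals for counting error, and open triangles mark genes with 0 counts. Levels are highest at Hoxa5 (24.1 and 33.5 CPM per kb) and drop sharply beyond number 7 in the Hoxa and Hoxb clusters. In the Hoxd cluster they are highest at Hoxd8 (0.287 and 0.302 CPM per kb) and Hoxd9 (0.203 and 0.315).

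Levels between genes are compared per length, in CPM per kb of merged exon. Hoxa5 had 2811 counts in the PM2.5 library and 3648 in the control library, or 24.1 and 33.5 CPM per kb. This level lay above that of 87.1% of 13792 protein-coding genes in the PM2.5 library and 89.5% in the control library. No other member reached the same order: Hoxb4, next in the PM2.5 library, stood at 8.89 CPM per kb and Hoxa4, next in the control library, at 6.65 CPM per kb. The median protein-coding gene was at 5.65 and 6.17 CPM per kb in the PM2.5 and control libraries, so most Hox members that passed the filter lay below it in either library.

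The order of the levels differed between the libraries. In the PM2.5 library Hoxa5 was followed by Hoxb4, Hoxa4, Hoxa2, Hoxb5 and Hoxa6, and in the control library by Hoxa4, Hoxb5, Hoxb4, Hoxa2, Hoxa7 and Hoxa6. In the PM2.5 library the intervals of Hoxa2 and Hoxb5 overlapped, and so did those of Hoxb5 and Hoxa6. There Hoxb6 overlapped Hoxb7, Hoxb7 overlapped Hoxa3 and Hoxa3 overlapped Hoxa7, and Hoxb2 was lowest. In the control library Hoxa4 overlapped Hoxb5, Hoxb4 overlapped Hoxa2, Hoxa2 overlapped Hoxa7 and Hoxa7 overlapped Hoxa6, as did Hoxa3 with Hoxb6 and Hoxb3 with Hoxb2, the lowest. The order depended on the length used: per kb of the longest transcript, Hoxa3 stood at 3.47 CPM per kb in the PM2.5 library and 3.39 in the control library, above Hoxa6 in both. By that length Hoxa7 stood at 2.06 CPM per kb in the PM2.5 library and 5.40 in the control library, above Hoxb4 and Hoxa2 in the control library. Per kb, Hoxb4 exceeded 63.8% of protein-coding genes in the PM2.5 library and 38.3% in the control library, while Hoxa7 exceeded 16.9% and 37.1%.

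Among members numbered 1 to 3, which pattern the hindbrain, the branchial arches and the tissues derived from them, none was called under the TMM scaling. Hoxa2, which sets the identity of the second branchial arch, had 409 counts in the PM2.5 library and 408 in the control library, a ratio of 0.934 (0.813 to 1.07). Its interval includes 1, and the ratio lay above 1 when scaled by library totals or the upper quartile. Hoxa3, required for the thymus and parathyroid, had 559 counts in the PM2.5 library and 509 in the control library, a ratio of 1.02 (0.906 to 1.16).

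In the Hoxb cluster, Hoxb2, which acts in the hindbrain and facial nerve, had 62 counts in the PM2.5 library and 80 in the control library, a ratio of 0.722 (0.510 to 1.02). Hoxb3, its neighbour, had 179 and 114 counts in the PM2.5 and control libraries, a ratio of 1.46 (1.15 to 1.87). Its interval excludes 1 but the size stayed under 1.5-fold, and with library totals or the upper quartile Hoxb3 was called higher. Hoxb1 had 3 counts in the PM2.5 library and 0 in the control library, Hoxd3 had 2 and 1, and Hoxd1 had none in either. The members numbered 1 to 3 together had 1307 counts in the PM2.5 library and 1178 in the control library, a ratio of 1.03 (0.955 to 1.12).

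Members numbered 4 to 8, which pattern the neck and chest region from which the lung arises, held 82.2% of the Hox counts in the PM2.5 library and 85.0% in the control library. All 4 calls lay here, 2 in each direction. Hoxb4 (chromosome 11, 96318267 to 96321638), known for expanding blood stem cells when overproduced, had 1419 counts in the PM2.5 library and 594 in the control library. This is a level of 8.89 CPM per kb in the PM2.5 library and 3.99 in the control library, and a ratio of 2.23 (2.02 to 2.45). Hoxb4 took 18.8% of all Hox counts in the PM2.5 library and 7.21% in the control library, and no listed exon on the opposite strand overlaps its own.

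Hoxa4, the paralogue of Hoxb4 with a role in the identity of neck vertebrae, had 447 counts in the PM2.5 library and 615 in the control library. It was 1.48-fold lower in the PM2.5 library (1.30 to 1.67), just under the size required, and was called lower once the trend of ratios with transcript length was removed (log2 ratio -0.85). Hoxc4 had 20 counts in the PM2.5 library and 1 in the control library, a ratio of 18.6 with a wide interval of 2.98 to 773, and stayed below the level filter.

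The 2 paralogues numbered 5 with a known part in lung formation both had smaller values in the PM2.5 library. Hoxa5 was 1.39-fold lower there (1.33 to 1.46), which is under the size required, and it lay below the control library under every scaling tried. With the length trend removed Hoxa5 was called lower, at a log2 ratio of -0.71. Hoxb5 (chromosome 11, 96303336 to 96306121), active in lung mesenchyme and partly interchangeable with Hoxa5 in mice, had 621 counts in the PM2.5 library and 1062 in the control library. It was called lower, by 1.83-fold (1.66 to 2.03), with levels of 3.58 and 6.57 CPM per kb in the PM2.5 and control libraries. Exons of Hoxb5os on the opposite strand cover 100 of its 2786 exon bases. Hoxc5 had 21 counts in the PM2.5 library and 10 in the control library, a ratio of 1.96 (0.882 to 4.66), and shares 166 exon bases with Hoxc10 on the same strand.

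At number 6, whose members act in the chest skeleton, no gene was called. Hoxa6 had 158 counts in the PM2.5 library and 160 in the control library, a ratio of 0.920 (0.734 to 1.15), which likewise lay above 1 under those scalings and was called lower with the length trend removed (log2 ratio -0.59). Hoxb6 had 231 and 160 counts in the PM2.5 and control libraries, a ratio of 1.35 (1.10 to 1.66), so its excess stayed under 1.5-fold except with library totals (log2 ratio 0.66). Hoxc6 had 6 counts in the PM2.5 library and 0 in the control library, at least 1.86-fold higher against a floor of 3 counts per library, while the exact interval of the ratio reaches down to 1.10.

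The paralogues numbered 7 were called in opposite directions. Hoxa7 (chromosome 6, 52214491 to 52221854), which helps set the identity of chest vertebrae, had 260 counts in the PM2.5 library and 636 in the control library. It was 2.62-fold lower in the PM2.5 library (2.27 to 3.04), with levels of 1.45 CPM per kb there and 3.81 in the control library. Hoxb7 (chromosome 11, 96286623 to 96290162), which has a like skeletal role, had 155 counts in the PM2.5 library and 75 in the control library, a ratio of 1.93 (1.45 to 2.57). Exons of the antisense gene Hoxaas3 cover 586 of the 2876 exon bases of Hoxa7, and no listed exon on the opposite strand overlaps Hoxb7.

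At number 8, which marks the lower chest and upper lumbar region, counts were small. Hoxd8 had 49 counts in the PM2.5 library and 48 in the control library, a ratio of 0.951 (0.626 to 1.45). Hoxb8 had 6 counts in the PM2.5 library and 0 in the control library, at least 1.86-fold higher against the floor (exact interval from 1.10), and Hoxc8 had 6 and 1.

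Of the 16 listed genes numbered 9 to 13, which pattern the lumbar and tail region, limbs and reproductive tract, none passed the filter and 7 were at 0 in both libraries. For a gene at 0, a floor of 3 counts is 0.0482 CPM in the PM2.5 library and 0.0517 CPM in the control library. Together they had 42 counts in the PM2.5 library and 56 in the control library, a ratio of 0.699 (0.457 to 1.06). Hoxd9 supplied most of these, with 27 and 39 counts in the PM2.5 and control libraries, followed by Hoxc9 with 9 and 7. Hoxa9, which is active in blood progenitors, had 2 counts in the PM2.5 library and 4 in the control library. The remaining members with counts, Hoxa13, Hoxb9, Hoxb13, Hoxd10, Hoxd11 and Hoxd13, had 0 or 1 count in the PM2.5 library and 0 to 3 in the control library.

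**Figure D2:**
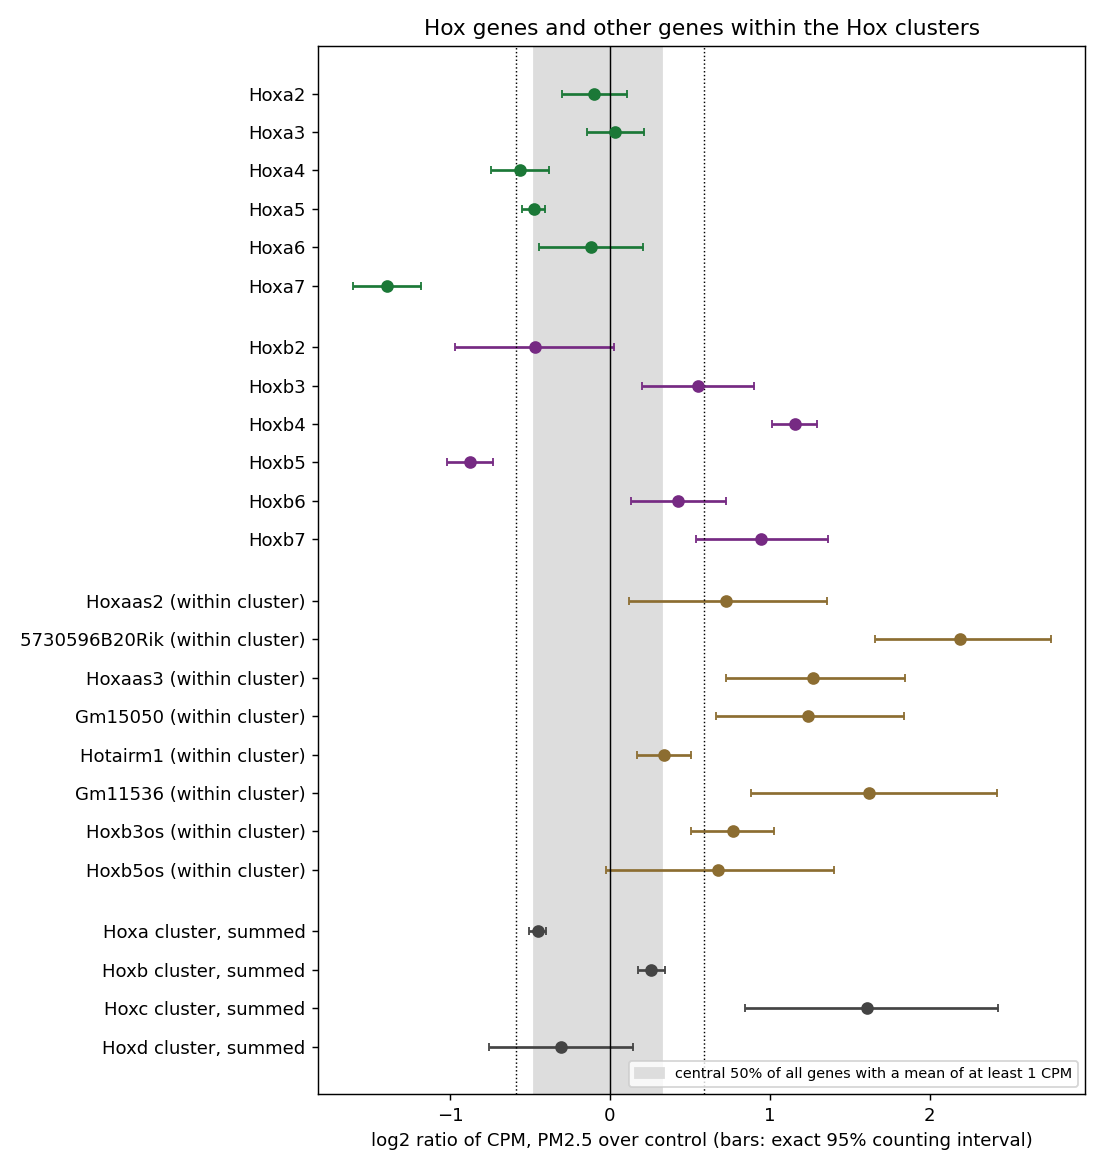
Ratio of CPM, PM2.5 over control, on a log2 axis for Hox genes that passed the level filter (green Hoxa, purple Hoxb), other genes within the clusters with at least 10 counts (brown) and the cluster sums (grey), with exact 95% counting intervals. The grey band holds the central 50% of all 14518 genes tested and dotted lines mark 1.5-fold. Among the Hox genes Hoxb4 (1.15) and Hoxa7 (-1.39) lie farthest from 0, and the brown points all lie to the right of it.

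Summed by cluster, Hoxa and Hoxb had opposite directions. The Hoxa genes had 4739 counts in the PM2.5 library and 6047 in the control library, 1.37-fold lower in the PM2.5 library (1.32 to 1.42). The Hoxb genes had 2678 and 2086 counts in the PM2.5 and control libraries, a ratio of 1.20 (1.13 to 1.27). Neither sum reached 1.5-fold. Within Hoxb the sum rests on Hoxb4, since Hoxb5, the next in counts, had fewer in the PM2.5 library.

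All Hox genes together were 1.17-fold lower in the PM2.5 library (1.13 to 1.21), and this difference vanished with library totals, where the log2 ratio was 0.0034. Without Hoxa5, an alternative added after seeing the data, the sums were 4748 counts in the PM2.5 library and 4596 in the control library, 1.04-fold lower (0.997 to 1.08). Hoxa took 62.7% of the Hox counts in the PM2.5 library and 73.4% in the control library, and Hoxb took 35.4% and 25.3%. These shares do not depend on the scaling.

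Hoxc was the sole cluster whose summed level was called higher in the PM2.5 library, and the level filter was not applied to sums. The Hoxc sum was 0.997 CPM in the PM2.5 library and 0.328 CPM in the control library, so even the whole cluster lay below that filter. Its 9 genes had 62 counts in the PM2.5 library and 19 in the control library, a ratio of 3.04 (1.79 to 5.39). The difference lay in Hoxc4 to Hoxc8, with 53 counts in the PM2.5 library and 12 in the control library, while Hoxc10 to Hoxc13 were at 0 in both. Hoxd had 80 and 92 counts in the PM2.5 and control libraries, a ratio of 0.810 (0.593 to 1.11). Hoxc genes mark tissue of the trunk and limbs, and both the Hoxc and the Hoxd sum lay under 2 CPM in each library.

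**Figure D3:**
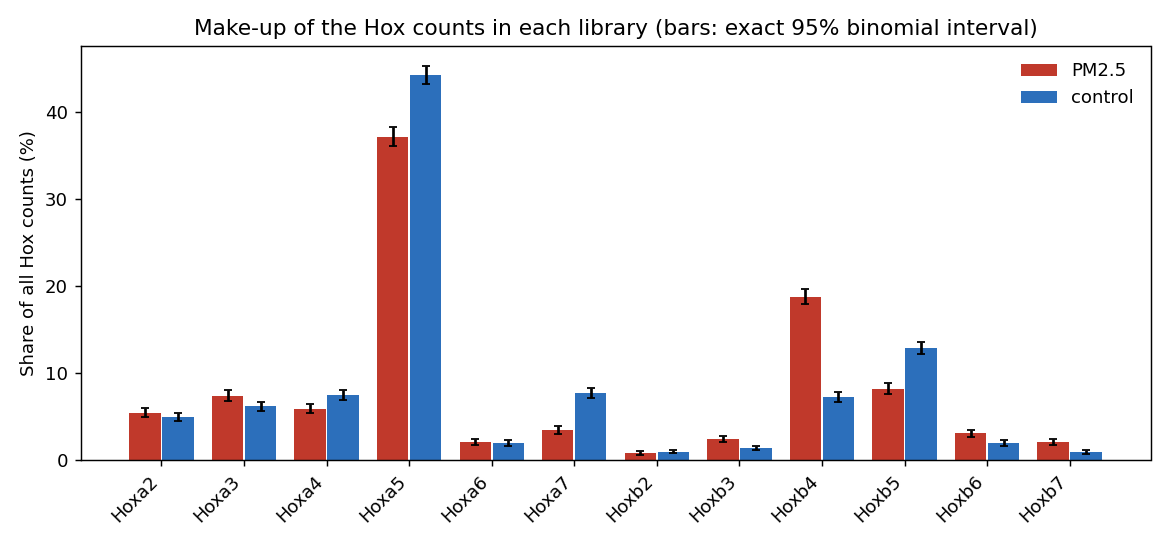
Share of all Hox counts in percent taken by Hox genes that passed the level filter, 1 left out, with the PM2.5 library left of the control library, for the Hox counts of 7559 and 8244. Hoxa5 takes 37.2% and 44.3%, and Hoxb4 takes 18.8% and 7.21%.

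The sums of 3 paralogue groups with over 100 counts in each library, 4, 5 and 7, had intervals that excluded equality. Group 4 had 1886 counts in the PM2.5 library and 1210 in the control library, a ratio of 1.45 (1.35 to 1.56). Group 5 was 1.47-fold lower in the PM2.5 library (1.40 to 1.53), with 3453 counts there and 4720 in the control library. Group 7 was the sole group called, 1.84-fold lower (1.63 to 2.08), with 415 counts in the PM2.5 library and 711 in the control library. In groups 4 and 7 the Hoxa and Hoxb members lay on opposite sides of equality.

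Ratios between 2 members within a library are free of the scaling between libraries. The pairs were chosen after the values were seen, so they are a description. Hoxb4 had 2.29 counts for each count of Hoxb5, its neighbour on the chromosome, in the PM2.5 library and 0.559 in the control library, a 4.08-fold difference (3.55 to 4.70). Hoxb4 over Hoxa4 was 3.17 in the PM2.5 library and 0.966 in the control library, a 3.29-fold difference (2.81 to 3.85). Per kb, the level of Hoxb4 lay above that of Hoxa4 in the PM2.5 library (8.89 and 4.51 CPM per kb) and below it in the control library (3.99 and 6.65).

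Hoxb7 over Hoxa7 was 0.596 in the PM2.5 library and 0.118 in the control library, a 5.05-fold difference (3.66 to 7.0). Hoxa7 over Hoxa6, its neighbour, was 1.65 in the PM2.5 library and 3.98 in the control library. Hoxb5 over Hoxa5 was nearer in both, at 0.221 in the PM2.5 library and 0.291 in the control library, a ratio of 0.759 (0.678 to 0.849). Adjacent genes thus differed in both clusters: Hoxb4 and Hoxb5 in one, Hoxa6 and Hoxa7 in the other.

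The clusters also hold other genes, many of them noncoding and on the opposite strand. Of 46 annotated inside the clusters 23 are listed, and the 8 with at least 10 counts over both libraries all had ratios above 1 under the scalings tried. Over the whole series, 23531 identifiers had counts in the PM2.5 library and 21280 in the control library, although the PM2.5 total was smaller. Whether genes with few counts outside the clusters lay above 1 as often was not tested. With the length trend removed, Hotairm1 turned to a log2 ratio of -0.09, Hoxb5os stood at 0.15 and Gm15050 at 0.66. Of the 5 that passed the filter, 4 were called higher and none lower, beside 14.9% higher and 19.1% lower over all genes. Among them 5730596B20Rik, Hoxaas3 and Gm15050 lay below 1 CPM in the control library (0.604, 0.673 and 0.621 CPM). They passed only through their level in the PM2.5 library, so the filter itself favours calls of higher here. The microRNA genes, 6 in number, were all at 0 in both libraries; libraries of this kind do not capture mature microRNAs. Hotairm1, a noncoding RNA of the Hoxa cluster known from human myeloid cells, had 676 counts in the PM2.5 library and 498 in the control library, a ratio of 1.27 (1.13 to 1.42) that was not called.

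The called genes were 5730596B20Rik, annotated as protein-coding, with 171 counts in the PM2.5 library and 35 in the control library (ratio 4.55, 3.15 to 6.75), and Hoxaas3 with 101 and 39 (2.41, 1.65 to 3.59). Gm15050 had 91 counts in the PM2.5 library and 36 in the control library (2.36, 1.59 to 3.57), and Hoxb3os had 354 and 194 (1.70, 1.42 to 2.04). The first 3 lie inside the Hoxa cluster and Hoxb3os inside the Hoxb cluster. Below the filter, Gm11536 had 66 counts in the PM2.5 library and 20 in the control library, Hoxaas2 had 64 and 36, and Hoxb5os had 48 and 28. Hotair, a noncoding RNA of the Hoxc cluster, Haglr and Hoxa11os were at 0 in both libraries, as was Hottip beside the Hoxa cluster, which was added after its value was seen.

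The balance of antisense and sense counts differed between the libraries at several members, most at Hoxa7. These ratios reuse the counts given above and are a description, not a separate result. Hoxa7 and Hoxb5 were already called lower. Hoxaas3, at 0.673 CPM in the control library, passed the filter only through its level in the PM2.5 library, and Hoxb5os and Hoxaas2 stayed below it. Hoxaas3 over Hoxa7 was 0.388 in the PM2.5 library and 0.0613 in the control library, a 6.32-fold difference (4.2 to 9.67). Hoxb5os over Hoxb5 was 0.0773 in the PM2.5 library and 0.0264 in the control library, a 2.93-fold difference (1.78 to 4.90). Hoxb3os over Hoxb2, which it also overlaps, differed by 2.35-fold (1.59 to 3.49) and Hoxaas2 over Hoxa3 by 1.62-fold (1.04 to 2.55). Hotairm1 over Hoxa2 differed by 1.35-fold (1.13 to 1.63). At Hoxb3 the interval included equality, with Hoxb3os over Hoxb3 at 1.98 in the PM2.5 library and 1.70 in the control library, a ratio of 1.16 (0.857 to 1.57).

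Exons of 6 of the 13 members that passed the filter overlap a listed gene on the opposite strand, among them Hoxa3, Hoxa7, Hoxb2, Hoxb3 and Hoxb5. The kit marks strand, but whether the counting used it is not stated, so counts of these genes and their antisense partners are uncertain. Both members called lower, Hoxa7 and Hoxb5, are among them, and neither member called higher is. Whether the overlap contributes to these ratios was not tested.

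The nearest protein-coding genes outside the clusters followed no common direction. Ttll6, a tubulin-modifying enzyme of cilia beside the Hoxb cluster, had 543 counts in the PM2.5 library and 139 in the control library, a ratio of 3.64 (3.02 to 4.42). Calcoco1, beside the Hoxc cluster, had 7217 counts in the PM2.5 library and 11434 in the control library and was 1.70-fold lower (1.65 to 1.75), a call lost with library totals (log2 ratio -0.54). Skap1, Skap2, Smug1 and Mtx2 were not called, and Evx1 and Evx2, homeobox genes at the ends of the Hoxa and Hoxd clusters, were at 0 in both libraries.

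Hox proteins bind DNA together with the TALE homeodomain cofactors of the Pbx, Meis and Pknox families. All 9 passed the filter, 1 was higher and 3 lower in the PM2.5 library, and the median log2 ratio was -0.34. With library totals 2 were higher and 1 lower, and 1 was lower with the upper quartile or the length trend removed. Pknox2 had 1253 counts in the PM2.5 library and 3168 in the control library and was 2.71-fold lower (2.54 to 2.90). Meis2 was 1.65-fold lower in the PM2.5 library, while Pbx4, with 108 counts in the PM2.5 library and 32 in the control library, had a ratio of 3.15 (2.1 to 4.82). Pbx4 lay at 0.552 CPM in the control library and passed the filter only through its level in the PM2.5 library. Per kb Pbx2 was the most abundant, at 18.1 CPM per kb in the PM2.5 library and 22.7 in the control library.

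Trithorax proteins keep Hox genes active through histone H3 methylation. All 15 genes of this list passed the filter, 1 was higher and 4 lower, with a median log2 ratio of -0.30. The background was 14.9% higher and 19.1% lower over all genes, with a median of -0.09. Dpy30, a subunit of the methyltransferase complexes, had a ratio of 1.53 (1.42 to 1.65) and the highest level of the list, 25.8 CPM per kb in the PM2.5 library and 16.8 in the control library. The methyltransferase gene Ash1l was 1.62-fold lower in the PM2.5 library, Setd1b 1.63-fold, Men1, which encodes menin, 1.65-fold, and Kdm6b, a demethylase of the Polycomb mark, 1.52-fold. The count of lower genes was 0 for library totals and 1 under upper-quartile scaling.

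Polycomb proteins keep Hox genes silent. Of 33 such genes 32 passed the filter, 3 were higher and 10 lower, with a median log2 ratio of -0.30. The background was 14.9% higher and 19.1% lower over all genes, with a median of -0.09. Cbx6, a reader of the Polycomb mark, had 6394 counts in the PM2.5 library and 13420 in the control library and was 2.25-fold lower (2.19 to 2.32), whereas Cbx7, of the same family, had 6911 and 3663 and a ratio of 1.76 (1.69 to 1.83). Phc1, Kdm2b and Phc2 were 1.76-fold, 1.67-fold and 1.58-fold lower in the PM2.5 library, and Pcgf1 and Pcgf6 had ratios of 1.57 and 1.52. Rbbp7 and Phf1 had the highest levels, with 36.1 and 24.7 CPM per kb in the PM2.5 library and 45.9 and 18.0 in the control library, and neither was called. With library totals 1 Polycomb gene was lower, and with the upper quartile 3.

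Retinoic acid switches on low-numbered Hox genes in the embryo. Of the 23 genes of this pathway 14 passed the filter, 3 were higher and 1 lower, and the median log2 ratio was 0.13. The background was 14.9% higher and 19.1% lower over all genes, with a median of -0.09. Among the higher genes were Rbp4, a carrier of retinol (ratio 1.64, 1.51 to 1.78), and Aldh1a3, a retinoic acid synthesizing enzyme with 115 counts in the PM2.5 library and 65 in the control library (1.65, 1.21 to 2.27). Rxra, a retinoid receptor, was 1.99-fold lower in the PM2.5 library (1.92 to 2.06). Aldh1a1 and Dhrs3, enzymes of retinoid metabolism, had the highest levels, 292 and 36.4 CPM per kb in the PM2.5 library and 253 and 38.1 in the control library. Cdx1, Cdx2 and Cdx4, homeobox regulators of Hox genes in the embryonic trunk, were at 0 in both libraries.

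Marker lists of cells that may carry Hox RNA also differed between the libraries, beside 14.9% of all genes higher and 19.1% lower. Of 16 lung fibroblast markers, 3 were higher and 8 lower in the PM2.5 library, and their summed level was 6110 CPM there and 9463 CPM in the control library. All 10 pericyte markers passed the filter, 6 were lower and none higher, with sums of 589 CPM in the PM2.5 library and 1346 CPM in the control library. Of 12 endothelial markers 10 were lower and none higher, and they summed to 4716 CPM in the PM2.5 library and 9715 CPM in the control library. None of these markers was at 0 in either library. These values stand beside the lower Hoxa5, Hoxa7 and Hoxb5 levels and the higher Hoxb4 and Hoxb7 levels. Whether the markers have any part in these levels was not tested.

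The most abundant markers give the scale. In the fibroblast list Inmt had 2617 CPM in the PM2.5 library and 1506 CPM in the control library, and Limch1 had 654 and 1297 CPM. In the pericyte list Postn had 316 CPM in the PM2.5 library and 705 CPM in the control library, and Pdgfrb had 76.0 and 249 CPM. The endothelial genes Calcrl and Ptprb had 1031 and 753 CPM in the PM2.5 library and 1911 and 2081 CPM in the control library.

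Fat markers differed most. Of 13, 12 were higher and 1 lower, with a median log2 ratio of 2.59 and sums of 889 CPM in the PM2.5 library and 216 CPM in the control library. The background was 14.9% higher and 19.1% lower over all genes. Car3 and Cfd, the most abundant, had 224 and 207 CPM in the PM2.5 library and 37.3 and 35.6 CPM in the control library, and no fat marker was at 0 in either. Of 11 skeletal muscle markers 5 passed the filter and 4 were higher, with sums of 18.3 and 8.35 CPM in the PM2.5 and control libraries. Among them Tnnt3 lay at 6.74 CPM in the PM2.5 library and 0.707 CPM in the control library. It passed only through its level in the PM2.5 library, so the filter itself favours calls of higher here. The same can hold for other muscle and fat markers. Myh4 was at 0 in both and Pvalb and Myoz1 at 0 in the control library. Whether any of the higher Hoxc, Hoxb4 and Hoxb7 counts come from such tissue was not tested.

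Leukocyte markers, 10 in all, were higher in 3 cases and lower in none, with sums of 1663 CPM in the PM2.5 library and 1408 CPM in the control library, Lcp1 and Coro1a leading. Of 12 markers of haematopoietic progenitors, in which Hoxb4 and Hoxa9 are known to act, 8 passed the filter, 3 were lower and none higher. Both lists stand beside 14.9% of all genes higher and 19.1% lower. The progenitor markers summed to 538 CPM in the PM2.5 library and 876 CPM in the control library, and the most abundant, Cd34 and Kit, had 201 and 122 CPM in the PM2.5 library and 290 and 243 CPM in the control library. Much of this sum was Cd34 and Kit, and whether their counts come from progenitors was not tested. The source of the Hoxb4 counts was not tested either.

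**Figure D4:**
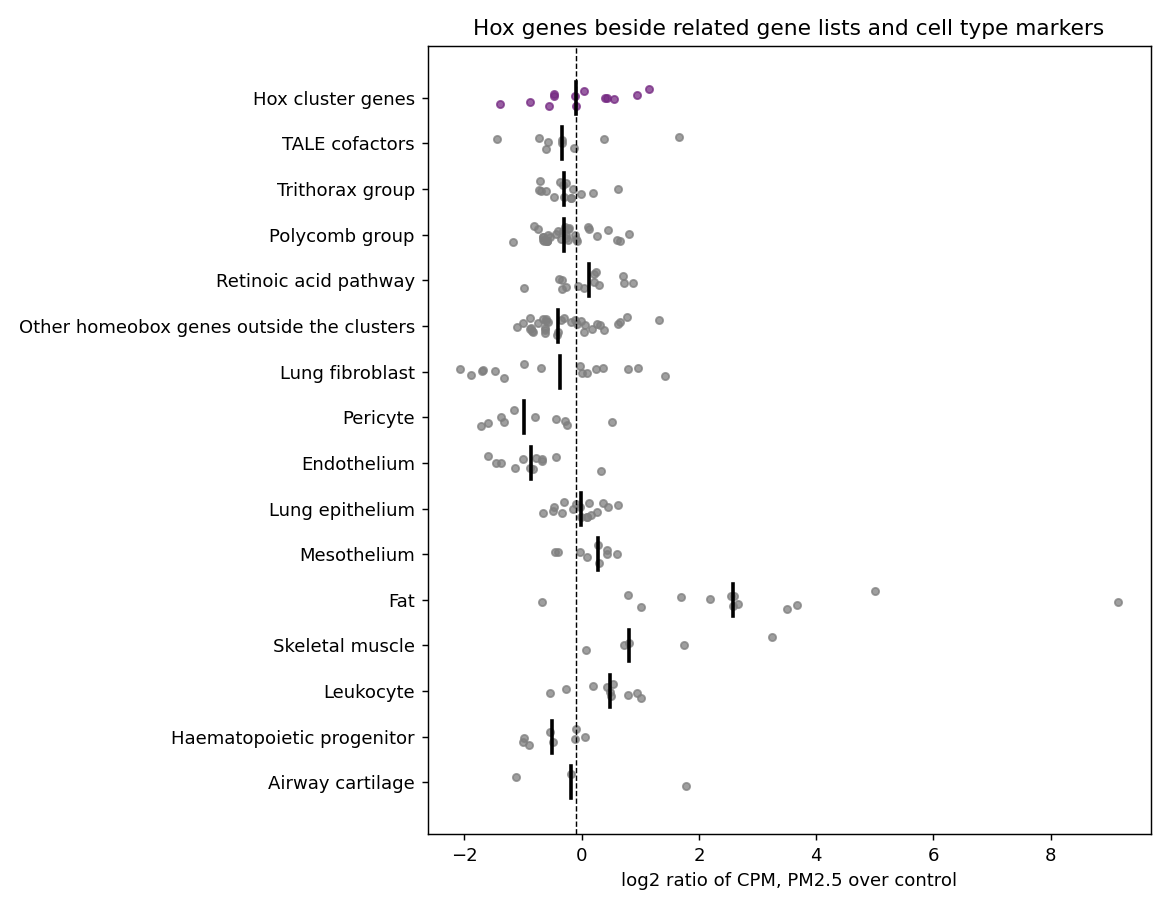
Log2 ratio of CPM, PM2.5 over control, for each gene that passed the level filter, with 1 row per list, Hox genes on top, then their cofactors, regulators and cell type markers. Short black bars are list medians, the dashed line is the median of all 14518 genes (-0.09), and the vertical scatter within a row has no meaning. The Hox genes spread from -1.39 to 1.15 around a median of -0.10, and the fat markers lie to the right.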

How the data were processed

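Polyadenylated RNA of whole lung was sequenced in paired mode with reads of 125 bp from a stranded KAPA kit, per the labels' protocols. The submitters' processing notes name TopHat2 2.1.1 and HTSeq 0.6.0, with mm10 as the build. Neither the release of the annotation nor the setting for strand is given in the sources used here. The authors deposited raw counts per Ensembl identifier, without normalization, and 1 blank line in the PM2.5 file carries no count.

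Symbols, coordinates and exon lengths were added from GENCODE M21 on GRCm38, for 35449 of 37315 identifiers. Libraries were grouped by the exposure label. TMM factors came from edgeR 4.0.16. The filter was a mean of at least 1 CPM. The ratio of PM2.5 over control of each gene was given an exact 95% Clopper-Pearson interval on the part of its summed counts that fell in the PM2.5 library. A call needs 1.5-fold and an interval that leaves out 1. Genes at 0 were set against a floor of 3 counts per library. Intervals between members are conditional on the counts and need no scaling. No p-value or model of variation between animals is possible with 1 library per group.

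Members that passed the filter are named, as are up to 4 called genes per direction of each companion list by the interval bound farthest from 1, the 2 of highest level per kb, and the 2 most abundant of each marker list. Some genes that this rule takes are left out by name and from the figures that show single genes, but they are in the fits, counts and sums. Cdx genes, the promoters, the pairs and Hottip were chosen after their values were seen. The members and lists were chosen with earlier results of these data known. Alternatives were other scalings (the upper quartile, library totals, size factors from DESeq2 1.42.0), filters, sizes and lengths, thinning of the deeper library and removal of the trend with length (lowess, fraction 0.3). The steps were tested on simulated data. Intervals came from scipy 1.17.1, the lowess fit from statsmodels 0.14.6, and tables from pandas 2.3.3, under Python 3.11.15 and R 4.3.3.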

Additional observations from a re-analysis of the deposited data

How the results depend on the processing

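No paired analysis was possible because there is 1 library per group, and none could be left out in turn. Hoxb4, Hoxb7, Hoxa7 and Hoxb5 kept their calls under every scaling, under thinning and with the length trend removed. Hox genes counted higher were 5 with library totals (Hoxb3 and Hoxb6 among those added), where the median log2 ratio of all genes was 0.14. The share of all genes called under the other scalings was not counted. Hox genes counted higher were also 5 with no filter, and 1 each at a mean of 10 CPM, at 2-fold and with the interval bound beyond 1.5-fold. Hox genes counted lower were 5 with the length trend removed (Hoxa4, Hoxa5 and Hoxa6 added, at log2 ratios of -0.85, -0.71 and -0.59), 1 at 10 CPM, 1 at 2-fold, and 0 with members overlapping an opposite-strand gene left out, which was added after seeing the data and removes both Hoxa7 and Hoxb5. The log2 ratio of the Hoxa sum was -0.65 and that of numbers 9 to 13 was -0.66 with the length trend removed, and that of the Hoxb sum was 1.03 without opposite-strand overlap. With library totals, TALE cofactors had 2 higher and 1 lower, Trithorax genes 0 lower (median -0.072), Polycomb genes 1 lower (median -0.072) and other homeobox genes 7 lower. With the upper quartile the lower genes were 1 TALE, 1 Trithorax, 3 Polycomb and 8 other homeobox. With the length trend removed they were 1 TALE, 1 Trithorax (0 higher), 3 Polycomb and 9 other homeobox. At 10 CPM, 0 TALE, 1 Polycomb and 0 other homeobox genes were higher, and with at least 1 CPM in the control library 0 TALE genes were. At 2-fold the counts were 1 TALE lower, 0 Trithorax higher and 0 lower, 0 Polycomb higher and 1 lower, 0 retinoic acid pathway higher and 0 lower, and 1 other homeobox higher and 2 lower. With the bound beyond 1.5-fold they were 0 Trithorax higher, 1 Polycomb higher and 6 lower, and 1 other homeobox higher and 8 lower. The causes of these changes were not tested. Counts under 100, as in Hoxc, Hoxd and the genes numbered 9 or higher, limit those ratios, and variation between animals is not measured.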

Other observations

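Homeobox genes outside the Hox clusters had a lower median log2 ratio, -0.40, than the Hox genes, at -0.10. Of 67 listed 33 passed the filter, 4 were higher and 14 lower in the PM2.5 library, beside 14.9% and 19.1% of all genes. The higher genes are known from embryonic mesenchyme and muscle: Prrx2 had 128 counts in the PM2.5 library and 48 in the control library, a ratio of 2.49 (1.77 to 3.54), and Six2 and Six4 had ratios of 1.70 and 1.57. Prrx2 lay at 0.828 CPM in the control library and passed the filter only through its level in the PM2.5 library. With at least 1 CPM required in the control library, 3 genes of this list were higher and 15 lower. Among the lower genes, Cux1 was 2.15-fold lower in the PM2.5 library (2.07 to 2.23), Zeb2, a repressor of epithelial genes, 2.01-fold, Hlx 1.82-fold and Zhx2 1.81-fold. The 2 with the highest levels, Hopx of type 1 alveolar cells, at 351 CPM per kb in the PM2.5 library and 292 in the control library, and Nkx2-1, the lung identity factor, at 56.0 and 68.8 CPM per kb, were not called.

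Mesothelium markers differed little: of 9 that passed the filter 1 was higher and none lower, with sums of 387 CPM in the PM2.5 library and 402 CPM in the control library, and Gpm6a and Msln leading. Lung epithelium markers had 1 higher and 1 lower of 17, with a median log2 ratio of -0.02. The background for the lists of this paragraph was 14.9% higher and 19.1% lower over all genes. Of 12 airway cartilage markers 3 passed the filter, with 1 higher and 1 lower, sums of 53.4 CPM in the PM2.5 library and 55.5 CPM in the control library, and Matn4 and Col11a2 leading, while Matn1 was at 0 in the control library.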
